A study of Equus caballus with 6 samples.

Results

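The genes described here handle fatty acids in the day 8 horse blastocyst: they take lipid up, activate it, build and modify chains, store them in glycerolipids and burn them. They were chosen by symbol. The families were ACSL, ACSS, ACAD, HADH, FABP, ELOVL, FADS, PLIN, AGPAT, DGAT, LPIN, ACOT and ACOX, each with a family number or letter, and 18 single genes from CD36 to ETFDH were added. The rule found 68 of the 12270 genes in the authors' table. APOB, which the rule also names, was not analysed here.

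The blastocysts developed in superovulated mares (Equus caballus), and the labels name no breed, age or individual mare. After Pronase digestion the trophectoderm (TE, the outer epithelium that gives rise to placenta) was taken off mechanically, whereas the inner cell mass (ICM) was obtained by immunosurgery, a complement-mediated lysis of the outer cells. RNA of single blastocysts was amplified and sequenced in 3 ICM libraries, labelled 15, 22 and 25, and 3 TE libraries, labelled 16, 23 and 24. No number occurs in both tissues, so the labels name no pairs, and the libraries were compared as unpaired. Whether any ICM and TE library share a blastocyst is not known from the labels. Each p-value reflects only how these 6 libraries spread. Tissue and isolation method coincide in all 6 and cannot be told apart.

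Cells obtain fatty acids by uptake through receptors such as CD36 or by synthesis from acetyl-CoA, which ACLY, ACACA and FASN convert to palmitate. An acyl-CoA synthetase must activate a fatty acid before it can be elongated, desaturated, joined to glycerol or oxidised, and carnitine palmitoyltransferases carry the activated chain into mitochondria for beta-oxidation. Embryos of large mammals hold lipid droplets in their cells, and both membrane growth and energy supply draw on this pathway before implantation.

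Levels are in RPKM, which divides the reads of a gene by its length and the library's depth, so genes can be compared per length. The libraries held 6526212 to 10686659 reads in the listed genes. Unless stated otherwise, 3 values in a row are those of ICM 15, 22 and 25 or of TE 16, 23 and 24, in that order. Differences are ICM minus TE on the log2(RPKM + 1) scale, on which low genes differ less than in RPKM. A gene was tested if it had at least 1 RPKM in at least 3 libraries, and called at a limma adjusted p under 0.05.

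ICM 25 stood apart from the other libraries. Across the genes tested its Pearson correlation was 0.864 and 0.895 with the other ICM libraries and 0.897 to 0.904 with TE libraries, against 0.942 between ICM 15 and 22. The summed RPKM of the 8 epiblast markers present was 160.0, 153.8 and 62.5 in ICM and 46.3 to 73.8 in TE. The 10 hypoblast markers present, for the endoderm under the epiblast, summed to 96.6, 96.2 and 35.1 in ICM and 29.8 to 42.3 in TE. In the deposited RPKM the sums in ICM 25 were therefore within the TE range. A rescaling used below, median of ratios, divides ICM 25 by 0.77 and the other libraries by 1.02 to 1.14. After it these sums in ICM 25 would stand higher relative to TE, so their place depends on the scaling. Single markers were not uniform in the deposited RPKM. In ICM 25, 6 of the 8 epiblast and 4 of the 10 hypoblast markers lay above every TE library, and 6 hypoblast markers lay below every TE library. The 8 trophectoderm markers summed to 49.8, 77.9 and 50.2 in ICM, below the 150.3 to 191.5 of TE, and ICM 25 was not high for them. Of single defining markers, SOX2 was listed at 0 in all TE libraries and 3.67, 4.13 and 0.44 RPKM in ICM, and CDX2 had 0.061 to 0.35 RPKM in ICM and 0.47 to 1.01 in TE. Markers of blood cells (2 of 8 present) summed to at most 4.20 RPKM in any library, those of endometrium and oviduct (3 of 5) to at most 3.86, and LIPE, the marker of adipocytes present (1 of 5), reached at most 0.78. The part of these markers in the results below was not tested.

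Among the 68 members, 56 were tested, and 12 stayed under the filter on low values. The test called 3 members, all of them acyl-CoA synthetases, where 1.87% of the 9436 genes tested were called. ACSL4 was higher in ICM, and ACSL6 and ACSS2 were higher in TE. ACSL4 passed the filter only through its ICM values, so it had to differ in order to be tested. The called genes of the whole table were split evenly, 88 with more in ICM and 88 with more in TE, or 126 and 83 after median of ratios rescaling and 114 and 80 after quantile normalization. At an unadjusted p under 0.05 stood 3 members with the higher mean in ICM and 16 with the higher mean in TE, where the shares over all genes were 5.28% and 11.6%. The tissues did not overlap in 24 of the 56, with ICM above in 3 (6.81% of all genes tested) and TE above in 21 (17.8% of all). The means were higher in TE for 41 of the 56, where 64.7% of all genes tested had the higher mean in TE.

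The median difference of the tested members was -0.34, beside -0.15 over all genes tested. Median of ratios rescaling moved the 2 medians to -0.22 and -0.03, so the members' median relative to all genes was -0.19 before and after it. Without ICM 25 they were -0.30 and -0.01. With all libraries the median relative to all genes was lowest for the 3 enzymes of palmitate synthesis, at -0.63, and was 0.13 for the 12 tested genes of mitochondrial oxidation. Without ICM 25 the binding proteins (-0.91), acyl-CoA synthetases (-0.71) and uptake genes (-0.65) were lower than palmitate synthesis (-0.63). In bulk tissue, fewer cells of a type and less RNA per cell cannot be told apart.

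**Figure D1:**
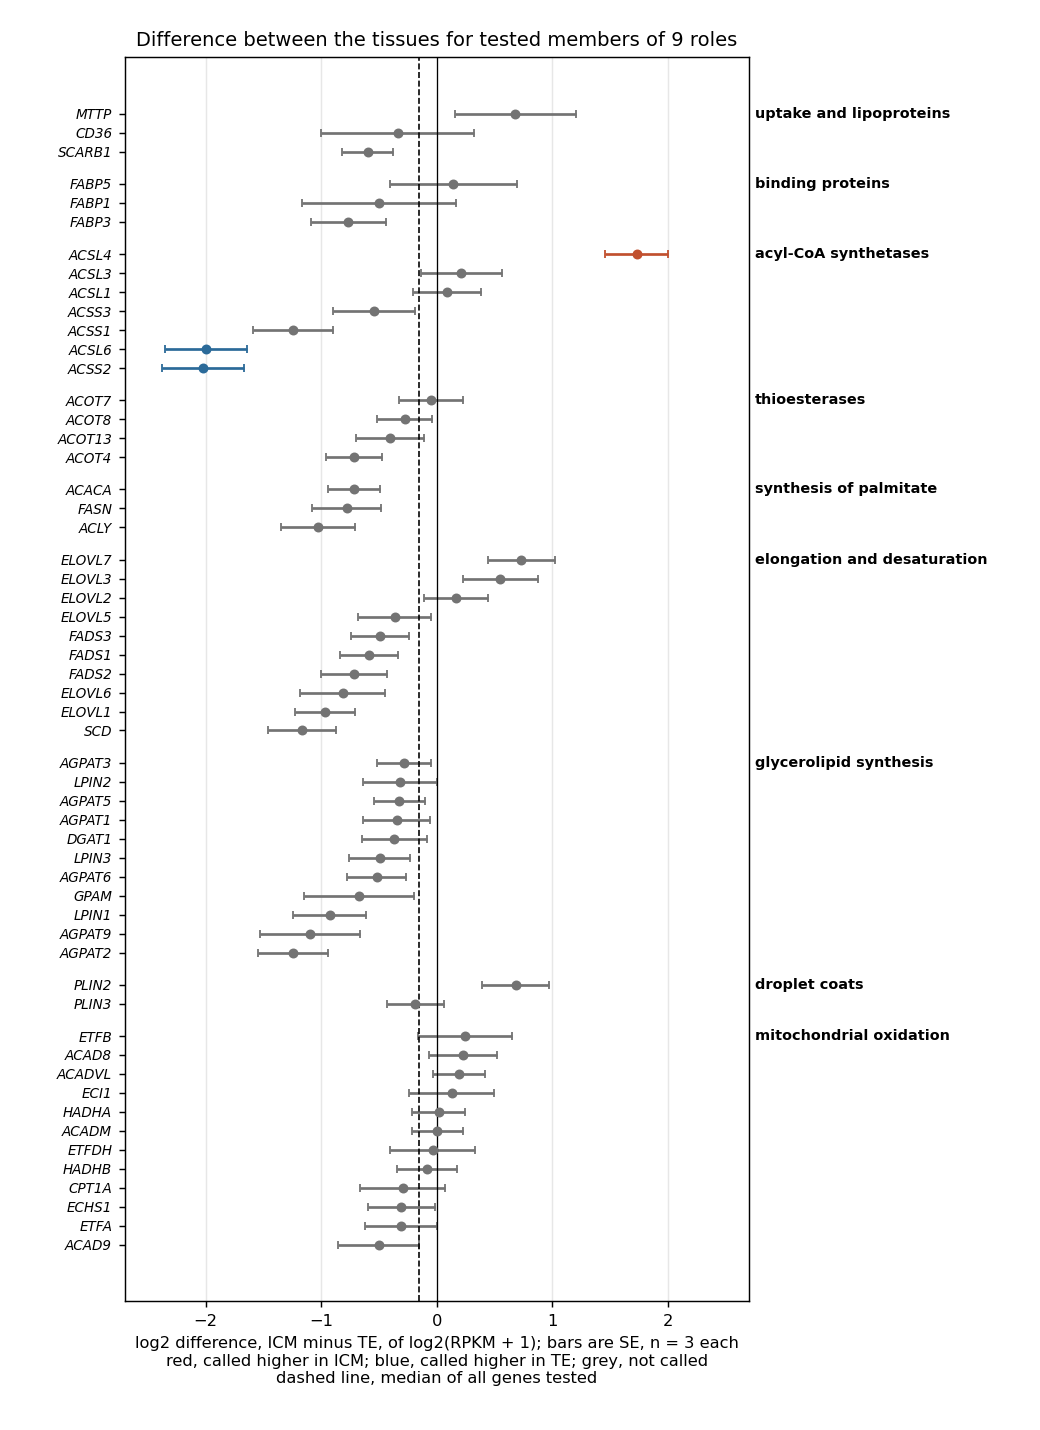
Log2 difference of ICM minus TE, on the log2(RPKM + 1) scale, for the tested members of 9 roles, with SE bars (n = 3 libraries of each tissue). ACSL4 at 1.73 and ACSL6 and ACSS2 near -2 are the 3 called members, and all 11 glycerolipid genes and all 3 palmitate synthesis genes lie left of 0.

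The acyl-CoA synthetases held every call of the set. ACSL4 prefers arachidonic acid and other polyunsaturated chains, and it stood at 2.89, 3.36 and 1.43 RPKM in ICM and at 0.0134, 0.0182 and 0.0965 in TE. These values rest on 203, 287 and 99 reads in ICM and 1, 1 and 7 reads in TE. Every ICM library was far above every TE library, and ICM 25 was the lowest of the 3. The log2 difference was 1.73 (SE 0.27, limma adjusted p = 0.026). The authors' deposited table gives ACSL4 a DESeq log2 fold of 5.91, which rests on the same 9 TE reads. ACSL4 passed the filter only through its ICM values, so it had to differ in order to be tested. By the authors' coordinates, for which no build is named, it lies on chromosome X from 86552906 to 86603888.

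ACSL6, best known from brain, where it favours docosahexaenoic acid, had the opposite order. Its levels were 3.67, 10.2 and 4.17 RPKM in ICM and 20.6, 29.6 and 24.9 in TE, from 1218 reads in ICM and 4283 in TE. The groups did not overlap, and ICM 22 held more than the other ICM libraries. The means were 6.01 ± 3.62 and 25.05 ± 4.51 RPKM (SD, n = 3 each), or 4.17-fold higher in TE (difference -1.996 on the log2 scale, SE 0.35, limma adjusted p = 0.035). ACSL6 lies on chromosome 14 from 43534564 to 43575725.

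ACSS2 turns acetate into acetyl-CoA in cytosol and nucleus. It closely resembled ACSL6 in level, at 3.05, 10.1 and 5.02 RPKM in ICM and 23.02, 26.6 and 26.5 in TE. ICM 15 was again lowest and ICM 22 highest among the ICM libraries, and all lay below the lowest TE library. The TE mean was 4.19-fold the ICM mean (log2 difference -2.02, SE 0.36, limma adjusted p = 0.034). ACSS2 lies on chromosome 22 from 25712738 to 25758545.

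These calls depended on single libraries. Without ICM 25 the limma adjusted p was 0.0036 for ACSL4, 0.017 for ACSL6 and 0.016 for ACSS2. Without ICM 22 it was 0.060 for ACSL4 and 0.022 for both others. Without ICM 15 it was 0.075, 0.103 and 0.082 for ACSL4, ACSL6 and ACSS2. Without TE 16, 23 or 24 it was 0.149, 0.165 and 0.122 for ACSL4, 0.149, 0.187 and 0.154 for ACSL6, and 0.161, 0.182 and 0.155 for ACSS2. Few genes of any kind were called in most of these fits. Among all 9436 genes tested, limma called 18 without ICM 15, 76 without ICM 22 and 0, 1 and 1 without TE 16, 23 and 24. Over the 6 fits the log2 difference ran from 1.56 to 1.98 for ACSL4, from -2.39 to -1.76 for ACSL6 and from -2.41 to -1.69 for ACSS2.

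ACSS1, the mitochondrial acetate enzyme, stood at 0.23, 1.63 and 1.31 RPKM in ICM and 2.54, 4.88 and 3.78 in TE. The groups did not overlap but the gene was not called (log2 difference -1.25, SE 0.34, limma adjusted p = 0.114), and without ICM 25 it was called (adjusted p = 0.049). ACSS3, a mitochondrial enzyme that prefers propionate, overlapped between the tissues, at 3.47, 3.15 and 5.25 against 4.32, 11.04 and 4.63 RPKM.

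ACSL3, an enzyme of the endoplasmic reticulum and of growing lipid droplets, was the most abundant ACSL gene in each ICM library. It had 32.9, 36.0 and 14.8 RPKM in ICM and 19.2, 21.1 and 27.5 in TE. ICM 15 and 22 exceeded all TE libraries and ICM 25 lay below them, and the gene was not called with all libraries (limma adjusted p = 0.81) or without ICM 25 (0.091). ACSL1, a main form of liver, heart and fat, spanned 4.49 to 7.92 RPKM in ICM and 4.86 to 8.18 in TE. ACSL5, a form of intestine and liver, stayed under the filter, at 0.71, 0.70 and 0.58 RPKM in ICM and 0.13, 0.10 and 0.21 in TE (108 and 22 reads). All its ICM values were above all TE values. In the authors' deposited table ACSL5 has a DESeq adjusted p of 0.00958.

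Within the ACSL family the share of each of the 5 genes did not overlap between the tissues, and the shares of ACSL3, ACSL6 and ACSL4 are given here. ACSL3 took 69.4%, 61.9% and 58.1% of the summed ACSL RPKM in ICM and 42.5%, 37.9% and 45.2% in TE. ACSL6 took 7.74%, 17.5% and 16.4% in ICM and 45.5%, 53.2% and 40.9% in TE. ACSL4 held 6.10%, 5.79% and 5.63% in ICM and at most 0.16% in TE. ICM 25, low in most ACSL levels, kept shares like those of ICM 15 and 22. These shares describe the same values as above and are not separate evidence.

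**Figure D2:**
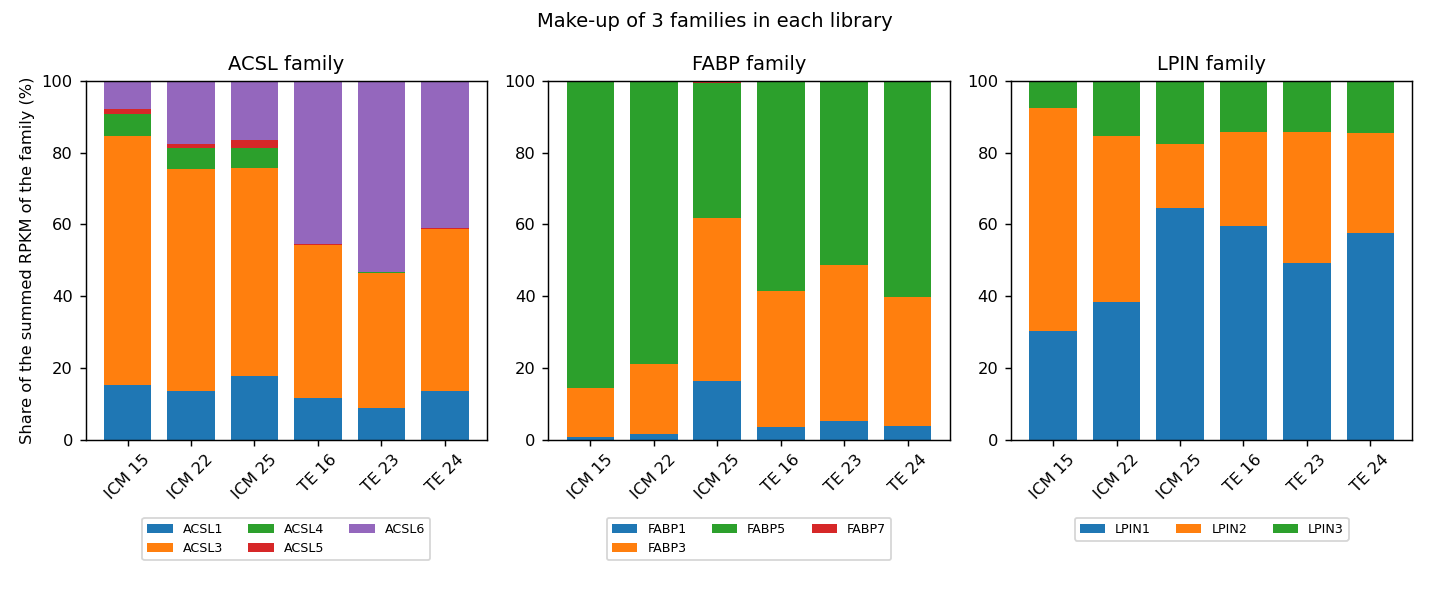
Stacked bars give the percentage of the family's summed RPKM held by each ACSL, FABP and LPIN gene in the 6 libraries. In the ACSL panel all ICM bars resemble one another, with ACSL6 at 7.74% to 17.5%, while in the FABP and LPIN panels ICM 25 resembles the TE bars more than those of ICM 15 and 22.

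The enzymes that make palmitate all had lower levels in each ICM library than in any TE library, though none was called. Such a separation, with TE above, was seen in 17.8% of all genes tested. ACLY, which splits citrate into cytosolic acetyl-CoA, stood at 28.7, 28.9 and 16.1 RPKM in ICM and 42.5, 40.9 and 69.9 in TE (difference -1.03 on the log2 scale, SE 0.32, limma adjusted p = 0.156). ACACA, the acetyl-CoA carboxylase that commits carbon to synthesis, was at 16.1, 18.7 and 14.7 against 26.02, 28.1 and 28.7 (log2 difference -0.72, SE 0.22, adjusted p = 0.154). FASN, the synthase, was at 13.6, 19.1 and 9.06 against 22.8, 20.4 and 28.3 (log2 difference -0.78, SE 0.30, adjusted p = 0.234). With the deposited scaling ICM 25 was the lowest of the 6 libraries for all 3 genes, as it was in 50.9% of all genes tested. Without it the differences were -0.76, -0.64 and -0.52, and only ACACA was called (adjusted p = 0.047). The coordinates of ACLY and FASN overlap those of KLHL11 and STRA13, and strand is not stated, so reads of such pairs cannot be told apart.

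In the authors' deposited table the DESeq adjusted p was 7.23e-04 for ACLY, 0.034 for ACACA and 0.019 for FASN. The deposited table calls 19 of the 68 members at 0.05, 5 toward ICM and 14 toward TE, where it calls 10.7% and 5.93% of its 12270 rows in these directions. The limma test used here and DESeq thus differed in how many members they called, with the same 3 libraries a group.

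Chain elongation and desaturation included the most abundant genes of the set. SCD, the desaturase that makes oleate from stearate, had 74.8, 98.4 and 148 RPKM in ICM and 205, 228 and 269 in TE. ICM 25 was nearest to TE, but the groups did not overlap. The TE mean was 2.19-fold the ICM mean (log2 difference -1.17, SE 0.29, limma adjusted p = 0.090), and SCD was called without ICM 25 (log2 difference -1.43, adjusted p = 0.0072). ELOVL6, which extends palmitate to stearate, stood at 139, 160.5 and 61.1 RPKM in ICM and 172, 193 and 228 in TE (difference -0.82 on the log2 scale, SE 0.37, adjusted p = 0.306). Here ICM 25 was the farthest from TE, and the difference was -0.39 without it. Its coordinates overlap those of a row without a gene name.

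ELOVL1, which makes very long saturated chains for sphingolipids, stood at 49.6, 41.6 and 28.7 RPKM in ICM and 79.2, 73.8 and 79.1 in TE. The TE libraries lay within a narrow range, well above the highest ICM value (log2 difference -0.97, SE 0.26, limma adjusted p = 0.105, and 0.028 without ICM 25). The other elongases were far less abundant. ELOVL5 and ELOVL2, which extend polyunsaturated chains, spanned 5.03 to 9.80 and 2.47 to 4.08 RPKM in ICM and 7.36 to 12.1 and 1.98 to 3.76 in TE. ELOVL7 and ELOVL3 were the elongases with the largest differences toward ICM. ELOVL7 had 4.35, 2.87 and 2.87 RPKM in ICM and 1.39, 1.04 and 2.59 in TE, without overlap (log2 difference 0.73, SE 0.29, adjusted p = 0.252), and ELOVL3 had 3.95, 8.95 and 7.37 against 3.32, 3.60 and 5.62.

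FADS1 and FADS2, the desaturases on the way to arachidonic and docosahexaenoic acid, ranked the libraries alike. FADS1 had 40.3, 54.1 and 65.5 RPKM in ICM and 73.2, 77.8 and 86.9 in TE. FADS2 had 30.8, 43.1 and 56.1 RPKM in ICM and 57.6, 71.3 and 83.3 in TE. In the deposited RPKM, ICM 15 was lowest and TE 24 highest for both, without overlap of the tissues. ICM 25 was the highest ICM library for both. Median of ratios raises ICM 25 relative to TE, so this order and separation depend on the scaling. The log2 difference was -0.59 for FADS1 and -0.72 for FADS2 (SE 0.25 and 0.28, limma adjusted p = 0.287 and 0.250), and both were called without ICM 25 (0.043 and 0.037). FADS1 kept 50.4% to 55.8% of the summed FADS RPKM in all 6 libraries. FADS3, a low relative, spanned 0.65 to 1.54 RPKM in ICM and 1.78 to 2.20 in TE, also without overlap.

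**Figure D3:**
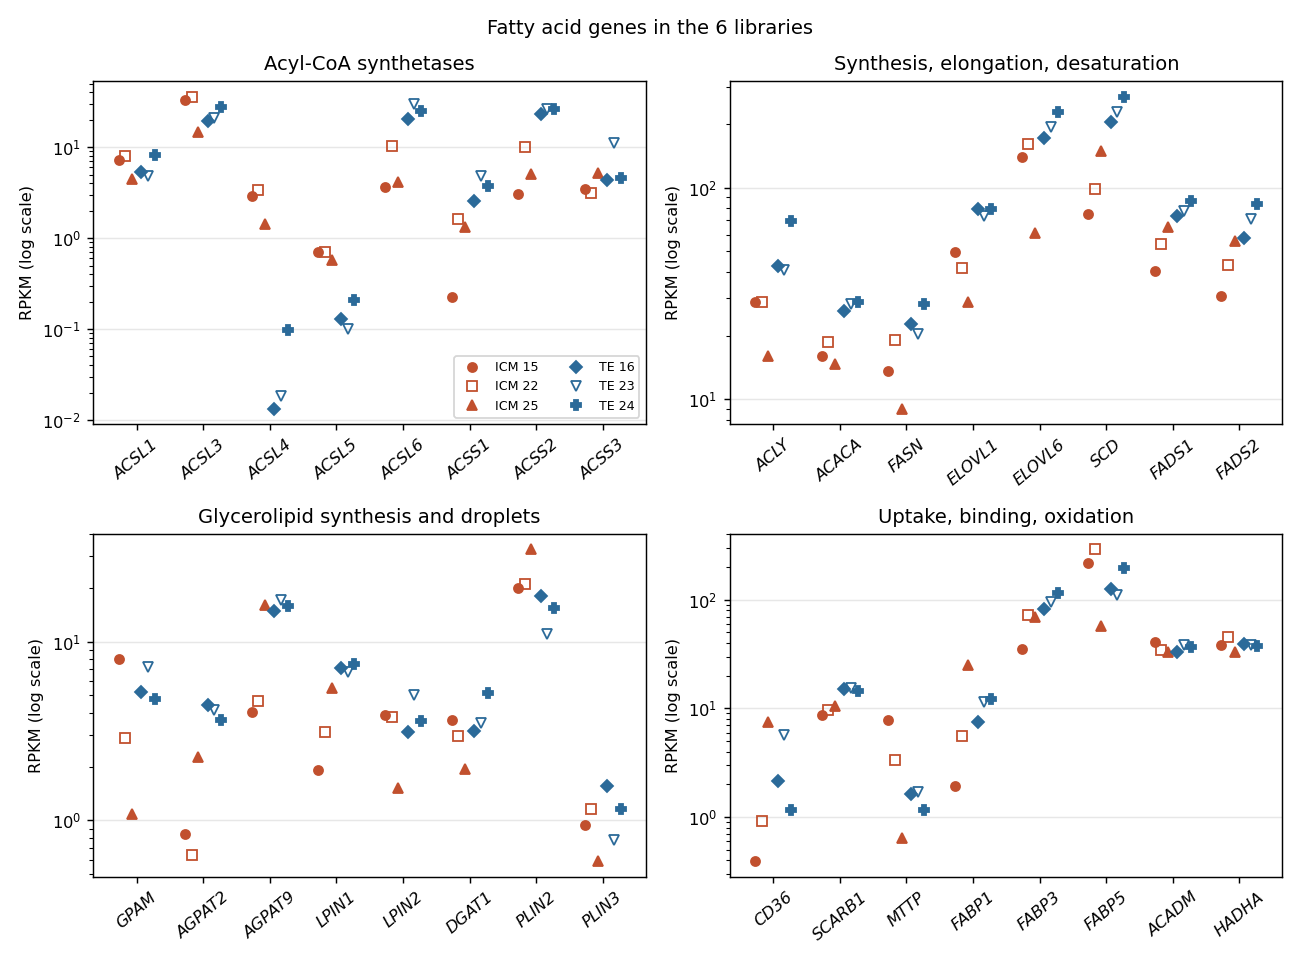
RPKM on a log axis for 32 of the 68 members in each library, with ICM in red and TE in blue and 1 symbol per library. ACSL4 and ACSL6 separate the tissues in opposite directions, SCD, FADS1 and FADS2 lie higher in TE with ICM 25 the nearest ICM library, and ACADM and HADHA lie at 33.1 to 44.95 RPKM throughout.

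All 11 tested genes of glycerolipid synthesis had a lower mean in ICM, also after either rescaling and without ICM 25, and none was called with all libraries. Over all genes tested the share with the lower mean in ICM was 64.7%, or 53.4% and 56.0% after median of ratios and quantile rescaling and 50.8% without ICM 25. In the deposited RPKM the groups did not overlap in 6 of the 11, where TE lay above ICM in 17.8% of all genes tested. This separation was not counted after rescaling, and median of ratios raises ICM 25 relative to TE, so it depends on the scaling. AGPAT2, which makes phosphatidic acid and whose loss in people causes lipodystrophy, was at 0.84, 0.64 and 2.26 RPKM in ICM and 4.45, 4.14 and 3.65 in TE (difference -1.24 on the log2 scale, SE 0.30, limma adjusted p = 0.079, and 0.0063 without ICM 25). LPIN1, a phosphatidate phosphatase that yields diacylglycerol, was at 1.90, 3.12 and 5.51 against 7.09, 6.76 and 7.51 (log2 difference -0.93, SE 0.32, adjusted p = 0.186, and 0.014 without ICM 25). In both genes ICM 25 was the ICM library nearest to TE.

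AGPAT9, since renamed as a glycerol-3-phosphate acyltransferase of the first step, separated ICM 25 from the other ICM libraries. It had 4.04 and 4.69 RPKM in ICM 15 and 22, 16.04 in ICM 25 and 14.8, 17.02 and 15.8 in TE. ICM 25 therefore lay inside the TE range in the deposited RPKM, a place that depends on the scaling. With all libraries the log2 difference was -1.10 (SE 0.43, limma adjusted p = 0.248), and without ICM 25 it was -1.65 (SE 0.18, adjusted p = 0.0035). GPAM, the mitochondrial enzyme of the same step, had the reverse arrangement within ICM, at 7.98, 2.88 and 1.09 RPKM against 5.25, 7.20 and 4.78.

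The other genes of this role differed less. AGPAT6, AGPAT5 and AGPAT3 did not overlap, with ICM at 5.38 to 8.26, 6.08 to 6.41 and 3.47 to 4.55 RPKM and TE at 8.33 to 11.3, 7.71 to 8.79 and 4.90 to 5.80. LPIN3 was at 0.46 to 1.51 RPKM in ICM and 1.69 to 1.96 in TE, also without overlap. AGPAT1, LPIN2 and DGAT1, the last of which completes triglyceride, overlapped. LPIN2 made up 62.3% and 46.3% of the summed LPIN RPKM in ICM 15 and 22 and 17.9% in ICM 25, beside 26.1% to 36.6% in TE. AGPAT4 stayed under the filter, at 0.26 to 1.11 RPKM in ICM and 0.21 to 0.45 in TE.

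PLIN2, the coat protein of lipid droplets in most cells, ran against the synthesis genes. It had 19.9, 20.9 and 32.9 RPKM in ICM and 18.1, 11.04 and 15.4 in TE, so every ICM library was above every TE library, narrowly for ICM 15. The log2 difference was 0.68 (SE 0.29, limma adjusted p = 0.279), and 0.46 without ICM 25, the highest library (adjusted p = 0.228). PLIN3, another coat protein, was low in both tissues, at 0.94, 1.16 and 0.59 RPKM in ICM and 1.56, 0.78 and 1.15 in TE (log2 difference -0.18).

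Receptors and lipoprotein assembly gave no call with all libraries. SCARB1 is the receptor for high-density lipoprotein. In the deposited RPKM it was steady within each tissue, at 8.73, 9.61 and 10.5 in ICM and 15.1, 15.3 and 14.6 in TE. The groups did not overlap there (log2 difference -0.60, SE 0.22, limma adjusted p = 0.211, and 0.045 without ICM 25). After median of ratios rescaling, which raises ICM 25 relative to TE, the SCARB1 difference was -0.46 (limma adjusted p = 0.332). MTTP, which loads lipid onto nascent lipoproteins, varied widely within ICM, at 7.83, 3.32 and 0.64 RPKM, and stood at 1.62, 1.69 and 1.16 in TE. ICM 15 and 22 were above all TE libraries and ICM 25 below them. The log2 difference was 0.68 (SE 0.52, adjusted p = 0.564) with ICM 25 and 1.32 (SE 0.32, adjusted p = 0.037) without it. Among the 10 hypoblast markers, ICM 25 was the lowest ICM library in 8, such as HNF4A (8.62, 7.27 and 1.14 RPKM in ICM, 4.05 to 4.92 in TE), and the highest in the other two, APOA1 (2.20, 6.57 and 8.27 in ICM) and BMP2 (5.54, 2.12 and 6.12). Their part in MTTP was not tested.

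CD36, the fatty acid translocase, had the reverse order within ICM, with 0.39, 0.92 and 7.48 RPKM, beside 2.16, 5.71 and 1.17 in TE. ICM 25 was the highest of the 6 libraries and ICM 15 and 22 the lowest. The sign of its difference rested on single libraries: it was -0.34 (SE 0.66, limma adjusted p = 0.85) with all, -1.13 without ICM 25, 0.17 without ICM 15 and 0.11 without TE 23. LPL, the lipase that frees fatty acids from lipoproteins, stayed under the filter at 0.37 to 0.99 RPKM in all libraries.

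The intracellular binding proteins carried 2 of the most abundant members, FABP5 and FABP3. FABP5, a form of skin and many epithelia, stood at 218, 291 and 57.5 RPKM in ICM and 126, 111 and 194 in TE. FABP3, the heart form, stood at 35.02, 72.5 and 69.7 in ICM and 81.3, 94.5 and 115.8 in TE. FABP1, the liver form, stood at 1.92, 5.56 and 25.0 in ICM and 7.46, 11.4 and 12.3 in TE. ICM 25 was the lowest of the 6 libraries for FABP5 and the highest for FABP1, while FABP3 did not overlap between the tissues.

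None of the 3 was called with all libraries. The log2 difference of FABP3 was -0.76 (SE 0.32, limma adjusted p = 0.276). For FABP1 it was -0.50 (SE 0.67, adjusted p = 0.77), for FABP1 without ICM 25 -1.35 (adjusted p = 0.048), and for FABP1 without ICM 15 0.22. For FABP5 it was 0.14 (SE 0.55, adjusted p = 0.93) with all libraries and 0.85 without ICM 25. The sign of the FABP5 difference turned without ICM 15 (-0.10), ICM 22 (-0.31) or TE 23 (-0.02). FABP5 took 85.3% and 78.6% of the summed FABP RPKM in ICM 15 and 22, 37.6% in ICM 25 and 51.1% to 60.2% in TE. FABP7, the brain form, stayed under the filter at 0.59, 1.34 and 0.66 RPKM in ICM and 0.18, 0.50 and 0.06 in TE, without overlap. Genes of this family can have near-identical copies in a genome, and the treatment of reads shared by such copies is not stated.

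Thioesterases, which release free fatty acids from acyl-CoA, gave no call. ACOT4, a peroxisomal form, was at 0.37, 0.90 and 0.96 RPKM in ICM and 1.63, 2.14 and 1.74 in TE, without overlap (log2 difference -0.72, SE 0.25, limma adjusted p = 0.189), and passed the filter only through its TE values. ACOT6, on chromosome 24 like ACOT4, was lower still, at 0.12 to 0.28 RPKM in ICM and 0.32 to 0.63 in TE. ACOT13, tied to mitochondria, spanned 6.35 to 13.3 RPKM in ICM and 12.4 to 14.8 in TE (log2 difference -0.40, adjusted p = 0.53). ACOT8, a peroxisomal form, was at 0.63, 1.27 and 1.01 against 1.27, 1.22 and 1.65 RPKM (log2 difference -0.28). ACOT7, the cytosolic form best known from brain, had near-equal means of 15.08 ± 4.69 and 15.1 ± 0.42 RPKM (95% interval of its log2 difference -0.69 to 0.58). ACOT11 and ACOT9 stayed under the filter, at 0.19 to 0.91 and 0.03 to 1.80 RPKM.

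Mitochondrial beta-oxidation gave no call. All 12 tested genes overlapped between the tissues, as did 7114 of all 9436 genes tested. Limma called 0 of the 12 with or without ICM 25, where it called 1.87% and 11.5% of all genes tested. An unadjusted limma p under 0.05 occurred in 0 of the 12, beside 16.9% of all genes tested. The deposited DESeq column calls ACAD11 alone, a gene not tested here. The means were higher in TE for 6 of the 12 with the deposited scaling and for 4 with either rescaling, so a direction for the role depended on the scaling. HADHA and HADHB, the subunits of the trifunctional protein that carries out the later steps on long chains, had 38.6, 44.95 and 33.1 and 36.0, 31.7 and 21.6 RPKM in ICM. In TE they had 39.2, 38.2 and 37.2 and 31.1, 33.2 and 28.7. ACADM, the dehydrogenase of medium chains, had 41.2, 34.4 and 33.2 RPKM in ICM and 33.1, 37.9 and 37.0 in TE.

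The 95% limma intervals of these log2 differences were -0.50 to 0.53 for HADHA, -0.67 to 0.50 for HADHB and -0.50 to 0.51 for ACADM, so differences of that size in either direction remain possible. ACADVL, the dehydrogenase of very long chains, was at 14.4, 14.6 and 12.9 RPKM in ICM and 10.8, 11.6 and 14.1 in TE (log2 difference 0.19, 95% interval -0.32 to 0.71). ACAD9, which also serves assembly of respiratory complex I, was at 8.80, 9.79 and 3.42 against 8.85, 11.3 and 9.99 RPKM. Its log2 difference of -0.50 (limma adjusted p = 0.52) was -0.10 without ICM 25, the lowest library. CPT1A, the entry step of long chains into mitochondria, spanned 1.72 to 5.46 RPKM in ICM and 3.51 to 6.55 in TE, and CPT2, its partner inside, stayed under the filter at 0.16 to 0.89 and 0.11 to 0.27.

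ETFA, ETFB and ETFDH, which pass electrons from the dehydrogenases to the respiratory chain, overlapped as well. ETFA was at 18.9, 37.2 and 18.9 RPKM in ICM and 28.4, 25.6 and 35.7 in TE (log2 difference -0.31, limma adjusted p = 0.68). ETFB and ETFDH spanned 5.40 to 17.6 and 3.24 to 9.01 RPKM in ICM and 5.33 to 8.82 and 5.16 to 8.45 in TE. The hydratase ECHS1 (5.71, 10.4 and 5.76 against 7.71, 8.48 and 10.8 RPKM, log2 difference -0.31) and the isomerase ECI1 (2.83 to 8.35 against 4.08 to 6.33) completed the chain of reactions with no separation. ACAD8, which acts on valine rather than fatty acids, spanned 0.69 to 2.08 and 0.59 to 1.46 RPKM.

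Of the untested genes of this role, ACAD11 stood out in ICM 25, at 2.76 RPKM (156 reads) beside 0.70 and 0.53 in ICM 15 and 22 and 0.33 to 0.55 in TE. The authors' deposited table gives it a DESeq adjusted p of 0.011, which rests on that library. ACAD10 (0.31 to 1.19 RPKM) and MLYCD, which removes the malonyl-CoA that blocks CPT1A (0.27 to 0.49 RPKM), were low in all libraries. ACOX3, an oxidase of peroxisomes, also stayed under the filter, at 0.14 to 0.63 RPKM in ICM and 0.59 to 1.31 in TE.

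ICM 25 moved the members in both directions. With the deposited scaling it was the lowest of the 6 libraries in 20 of the 56 tested members (35.7%), beside 50.9% of all genes tested. It was the highest ICM library in 17 (30.4%), beside 19.5% of all. These counts depend on the scaling of ICM 25 and were not made after rescaling. Those 17 include SCD, FADS1, FADS2, LPIN1, AGPAT2, AGPAT9, CD36, FABP1, SCARB1 and PLIN2. In the fit without ICM 25, the called members were 2 with more in ICM and 13 with more in TE, where 5.89% and 5.62% of all genes tested were called. The 2 were ACSL4, which passed the filter only through its ICM values, and MTTP. The 13 were ACSL6, ACSS1, ACSS2, ACACA, SCD, FADS1, FADS2, ELOVL1, AGPAT2, AGPAT9, LPIN1, SCARB1 and FABP1. This fit leaves 2 ICM libraries, and the choice to leave out ICM 25 was made with its values known.

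**Figure D4:**
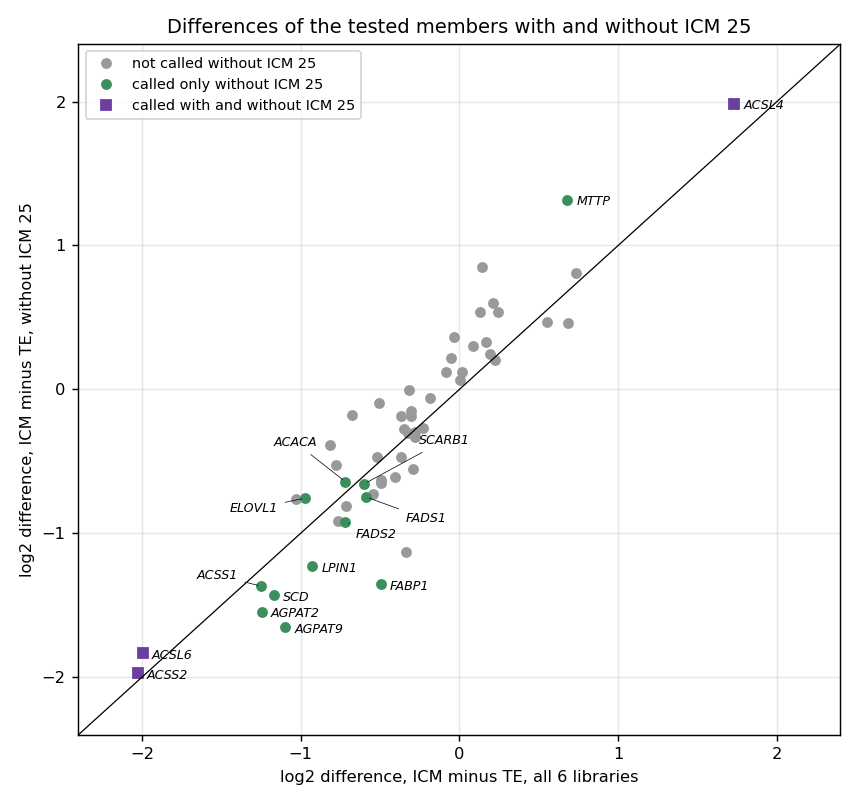
Log2 difference of ICM minus TE for the 56 tested members with all 6 libraries (horizontal) and without ICM 25 (vertical), with the line of equal values. MTTP moves from 0.68 to 1.32, AGPAT9 from -1.10 to -1.65 and FABP1 from -0.50 to -1.35, while ACSL6 and ACSS2 stay close to the line.

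Other genes of fatty acid metabolism, 62 of a list of 87, were in the table, and 48 were tested. An unadjusted limma p under 0.05 occurred in 2 with the higher mean in ICM and 5 with the higher mean in TE. The shares over all genes tested were 5.28% and 11.6%. With all libraries limma called 0 of the 48 higher in ICM and 1 higher in TE, where 0.933% of all genes tested were called in each direction. The call was EHHADH, the bifunctional enzyme of peroxisomal beta-oxidation, at 2.41, 5.93 and 4.76 RPKM in ICM and 20.3, 26.2 and 13.0 in TE (difference -1.97 on the log2 scale, SE 0.35, limma adjusted p = 0.036). All TE values lay above all ICM values, from 19, 57 and 37 reads in ICM and 171, 162 and 106 in TE. By the authors' coordinates EHHADH spans only 31647731 to 31648643 on chromosome 15, and whether this covers the whole gene is not stated. The adjusted p was 0.091, 0.056 and 0.0135 without ICM 15, 22 and 25 and 0.171, 0.187 and 0.114 without TE 16, 23 and 24. It was 0.054 with quantile normalization (log2 difference -1.83) and 0.069 with voom (-2.17). The median of the 48 was -0.18, beside -0.15 over all genes tested.

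Next in order of p in that list stood 3 genes that were not called. CPT1B, the muscle form of the carnitine enzyme, had 1.499, 1.07 and 1.20 RPKM in ICM and 0.46, 0.09 and 0.21 in TE (difference 0.85 on the log2 scale, SE 0.23, limma adjusted p = 0.107). ECI2, an isomerase of peroxisomes and mitochondria, had 12.9, 8.75 and 7.04 against 2.21, 5.85 and 4.82 (log2 difference 1.03, SE 0.35, adjusted p = 0.184). SREBF1, a transcription factor that drives genes of fatty acid synthesis, had 0.92, 0.72 and 1.19 RPKM in ICM and 1.56, 2.14 and 2.55 in TE (difference -0.66 on the log2 scale, SE 0.24, adjusted p = 0.215). In all 3 the tissues did not overlap, but CPT1B passed the filter only through its ICM values and so had to differ in order to be tested. HADH, the mitochondrial dehydrogenase of short chains, spanned 3.03 to 5.34 RPKM in ICM and 2.89 to 5.75 in TE.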

How the data were processed

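The data are 3 ICM and 3 TE libraries. The authors deposited 1 table whose library columns are RPKM, per the file headers, with DESeq's baseMean (a mean signal over the libraries), log2 fold change and p-value columns, all made by the authors. The authors ran FastQC and DESeq, per the submitters' processing notes. For aligner, counter, build and annotation: not given in the sources used here. Every row had at least 0.40 RPKM in at least 2 libraries.

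RPKM and baseMean together gave back the reads: 100% of values of up to 1000 reads were whole within 0.001. The cDNA was amplified and no molecular identifiers are named, so counts are not independent molecules.

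The 9436 genes reaching 1 RPKM in 3 or more libraries were fitted as log2(RPKM + 1) by limma 3.58.1 (R 4.3.3, eBayes with trend), two-sided, with Benjamini-Hochberg adjustment over all of them. The script was tested on simulated data. Members, roles and lists were chosen with earlier results of these data known. Named in full were called members, the 3 with the smallest p in each role, non-overlapping members with a log2 difference over 1 in size and, of the other genes, calls and the 4 smallest p. Among the 68 symbols, 66 occur in the NCBI gene table. Alternatives were another pseudocount, 2 other filters, 2 rescalings, library weights, voom on the reads and each library left out. One member that the naming rule picks is not reported here, though the counts include it.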

Additional observations from a re-analysis of the deposited data

How the results depend on the processing

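No paired analysis was run, because no replicate number occurs in both tissues and the labels name no pairs. Over the whole table, calls toward ICM and toward TE, 88 each, were 49 in TE with a pseudocount of 0.1, 54 in TE with no filter, 29 and 52 with a filter of 5 RPKM, and 365 and 395 with library weights. Leaving out single libraries gave 0 to 556 and 0 to 530. Among the members, 1 call higher in ICM became 0 with the filter of 5 RPKM, which drops ACSL4, and 0 to 2 with single libraries left out. The 2 calls higher in TE became 7 with library weights and 0 to 13 with libraries left out. EHHADH, the 1 call among other genes, gave 0 with quantile normalization and with voom, at differences of -1.83 and -2.17 beside -1.97, 3 calls with library weights and 0 to 3 with libraries left out. The members' median of -0.34 ran from -0.44 to -0.22 over all alternatives. Of 32 named genes, 3 changed sign, each only with a library left out: CD36 (-1.13 to 0.17), FABP1 (-1.35 to 0.22) and FABP5 (-0.31 to 0.85). The calls of ACSL4, ACSL6 and ACSS2 were lost without TE 16, 23 or 24 and without ICM 15, and ACSL4 also without ICM 22. Over the whole table limma called 18 and 76 genes without ICM 15 and 22 and 0, 1 and 1 without TE 16, 23 and 24, where 983, 925 and 953 had an unadjusted p under 0.05 (13, 10 and 10 of the members). Depth limits the low genes, such as ACSL4 with 9 reads in TE.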
